A study of Mus musculus with 2 samples.

Results

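The genes described here encode the receptors through which a cell can respond to progesterone: the nuclear progesterone receptor (Pgr), the membrane-associated heme-binding proteins Pgrmc1 and Pgrmc2, and the membrane progestin receptors of the PAQR family, Paqr5 to Paqr9. They were chosen by symbol. All 8 genes had at least 1 probe set that carried their symbol alone in the platform annotation, which gave 19 probe sets of the 45037 on the array that were not controls, and 8 of the 18193 genes with such a probe set. Signals came from the ovaries of C57BL/6 mice that were either wild type or progesterone receptor (PR) knockout, aged 24 to 28 days. Both genotypes received 5 IU of PMSG, a gonadotropin that drives follicle growth, and 48 h later 5 IU of hCG, which acts like the ovulatory surge of luteinizing hormone. Ovaries were collected at 11 h, and RNA of each genotype was hybridized to 1 Affymetrix mouse GeneChip. Which part of Pgr is disrupted and how many mice each RNA sample stands for are not stated in the labels. Each genotype has a single array, so there are no replicates and no test, and every value below is a single measurement.

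Progesterone acts in the ovulating follicle mainly through PGR, a ligand-activated transcription factor that luteinizing hormone switches on for a short time in granulosa cells and that mice need for follicle rupture. Membrane progestin receptors are multi-pass proteins of the cell surface that share their fold with the adiponectin receptors and are linked to G-protein signalling. PGRMC proteins are small membrane proteins of the MAPR family that bind heme and take part in sterol and heme handling. In whole ovary RNA, fewer cells of a type and less RNA per cell cannot be told apart.

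RefSeq promoter windows (GRCm38.p6) were found for 7 of the 8 genes, 9 windows in all. The 250 bases before the start are shown for Paqr8, the measured gene of the group that differed most between the arrays, for Paqr6, which differed at a lower signal, and for Pgrmc1, whose signal was bright and nearly the same on both arrays. Capitals mark the core hexamer of the steroid receptor element, AGAACA or its reverse complement TGTTCT, and the GC box GGGCGG or its reverse complement CCGCCC.
Paqr8, first start (chr1:20890298-20890547, plus strand): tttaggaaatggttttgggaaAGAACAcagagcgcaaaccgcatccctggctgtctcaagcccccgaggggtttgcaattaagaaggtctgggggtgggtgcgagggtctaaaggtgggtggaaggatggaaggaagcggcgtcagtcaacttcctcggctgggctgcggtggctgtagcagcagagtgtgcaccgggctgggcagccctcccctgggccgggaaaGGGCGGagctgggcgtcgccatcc
Paqr8, second start (chr1:20917590-20917839, plus strand): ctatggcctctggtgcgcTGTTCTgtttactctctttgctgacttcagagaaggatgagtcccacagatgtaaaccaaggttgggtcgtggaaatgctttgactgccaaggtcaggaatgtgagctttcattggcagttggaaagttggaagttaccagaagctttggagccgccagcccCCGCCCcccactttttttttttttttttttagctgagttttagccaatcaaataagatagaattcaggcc
Paqr6 (chr3:88364339-88364588, plus strand): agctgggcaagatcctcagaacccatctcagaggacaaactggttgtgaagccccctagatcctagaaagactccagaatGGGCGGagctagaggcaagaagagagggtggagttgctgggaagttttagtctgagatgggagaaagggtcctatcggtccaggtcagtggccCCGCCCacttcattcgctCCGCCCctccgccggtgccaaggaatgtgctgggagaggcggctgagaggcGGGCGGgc
Pgrmc1 (chrX:36597943-36598192, plus strand): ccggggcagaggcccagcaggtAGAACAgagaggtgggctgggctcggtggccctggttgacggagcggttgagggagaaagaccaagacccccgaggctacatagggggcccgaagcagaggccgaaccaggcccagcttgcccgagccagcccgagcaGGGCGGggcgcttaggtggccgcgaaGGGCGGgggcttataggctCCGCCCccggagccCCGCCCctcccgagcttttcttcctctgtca

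The core hexamer AGAACA was found on either strand in both Paqr8 windows and in the Pgrmc1 window, and in none of the other 6 windows of these genes. It lay 229 and 232 bases before the Paqr8 starts and 228 bases before the Pgrmc1 start. Of all 32851 promoter windows of the same length, 16.1% held this hexamer. The full palindromic element (GNACA, any 3 bases, then TGTNC) was in none of the 9 windows and in 0.387% of all windows. GC boxes were present in 8 of the 9 windows, the exception being 1 of the Paqr7 windows, against 32.7% of all windows. The Pgrmc1 window held 4 of them, as did that of Paqr6. The Pgr window was the least GC-rich of the 9, at 43.6% against a median of 52.4% over all windows. These matches describe the letters only.

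Most of the 19 probe sets read at background. The median of each array without its controls (36.2 for wild type, 38.0 for knockout) served as the floor for a measured signal. On both arrays 7 probe sets reached it, on the knockout array alone 2, on the wild-type array alone 0, and 10 on neither. Of the 8 genes, 6 were measured on at least 1 array by their brightest probe set, 5 of them on both. Paqr5 and Paqr9 were not measured.

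**Figure D1:**
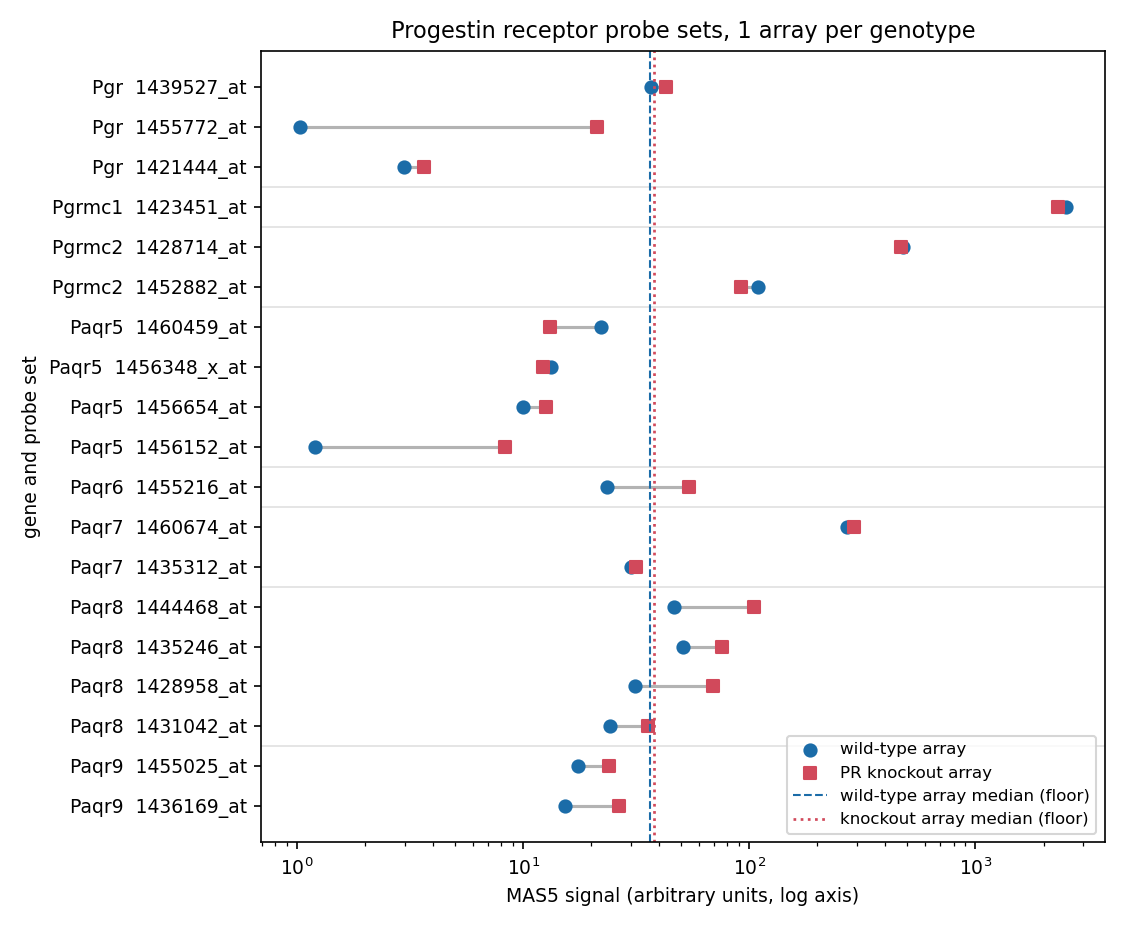
MAS5 signal (log axis, arbitrary units) of each of the 19 probe sets on the wild-type array (circles) and the PR knockout array (squares), with the 2 array medians as vertical lines. Pgrmc1 and the brighter probe sets of Pgrmc2 and Paqr7 lie far above the medians with nearly equal signals. The dimmer Pgrmc2 probe set lies at 3.02 and 2.41 times the medians. The 4 Paqr8 probe sets lie around the medians and each is higher on the knockout array.

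The nuclear receptor gene gave no signal clearly above background. The brightest Pgr probe set had a wild-type signal of 36.5 and a knockout signal of 42.8, 1.01 and 1.13 times the array medians, a log2 difference (knockout minus wild type) of 0.23. The other Pgr probe sets read 2.97 and 3.64, and 1.03 and 21.1, all under the floor. Their percentiles among all probe sets were 12.8 and 15.7 for the former and 4.88 and 40.9 for the latter, so the large ratio of the latter is a ratio between background readings. No Pgr probe set was lower in the knockout, and the array therefore does not check the genotype labels at this gene.

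The PGRMC genes were the bright members and differed little. Pgrmc1, whose product binds heme and sterol-modifying enzymes, gave 2524 for the wild type against 2324 for the knockout, above 98.5% and 98.4% of probe sets. These signals were 69.6 and 61.2 times the array medians, and the knockout reading was 1.09-fold lower (log2 difference -0.12). The related Pgrmc2 was read by a pair of probe sets, both measured on both arrays. The brighter one read 478 and 470, 1.02-fold lower in the knockout, and the dimmer one 110 and 91.6, 1.20-fold lower. Among measured genes of similar brightness the middle 50% of log2 differences ran from -0.20 to 0.10 for Pgrmc1 and from -0.14 to 0.17 for Pgrmc2. The brightest probe sets of both genes lay inside these ranges.

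Of the membrane progestin receptors, Paqr7 was well measured and alike on the arrays. Paqr7 encodes the receptor also called mPR alpha. Its brighter probe set gave 269 for the wild type against 289 for the knockout, 7.43 and 7.63 times the array medians and at percentiles 82.6 and 83.3. The knockout signal was 1.08-fold higher (log2 difference 0.10), inside the middle 50% of measured genes of that brightness (-0.12 to 0.27). Its other probe set read 30.1 and 31.5, under the floor on both arrays.

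Paqr8, which encodes mPR beta, was higher on the knockout array by all 4 of its probe sets. The one with the brightest mean gave 46.5 for the wild type against 104 for the knockout, 1.28 and 2.75 times the array medians, 2.24-fold higher (log2 difference 1.16). The second read 50.9 and 75.8, 1.49-fold higher. The third read 31.1, under the wild-type floor, and 68.8, which is at least 1.90-fold higher. The fourth read 24.2 and 35.8 and did not reach the floor on either array. As deposited, without a floor, the 4 log2 differences were 1.16, 0.57, 1.15 and 0.56. Its probe sets lay at percentiles 43.2 to 55.7 of the wild-type array and 49.2 to 66.7 of the knockout array.

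Probe sets that all differ in this direction were common on these arrays. Of 1949 genes with 4 or more probe sets, 260 (13.3%) were higher in the knockout by every probe set. Counting measured probe sets only, of which Paqr8 had 3, every one was higher in 25.4% of 2234 genes with 3 or more, and in 30.4% of the 56 such genes in the signal bin of Paqr8. Over the 3 rescalings of the arrays all 4 Paqr8 probe sets stayed higher, with log2 differences between 0.46 and 1.10. The signals are dim: with the 70th percentile of each array as the floor, 121 and 128, Paqr8 was not measured on either array. In its bin of signal, the second dimmest of 10, 15.5% of 1132 measured genes were at least 1.5-fold higher in the knockout, 4.15% were 2-fold higher or more and 2.39% were 2-fold lower or more.

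The remaining PAQR members were read close to or under the floor. Paqr6, which encodes mPR delta, had a single probe set that read 23.6 in the wild type, under the floor, and 54.2 in the knockout, 1.43 times the array median. Against the floor this is at least 1.496-fold higher (log2 difference 0.58), and as deposited it is 2.30-fold. Among measured genes of the dimmest bin of signal, 10.1% were at least 1.5-fold higher in the knockout. The 4 probe sets of Paqr5, which encodes mPR gamma, read from 1.20 to 22.0 in the wild type and from 8.28 to 13.1 in the knockout, with no common direction. The Paqr9 probe sets, for mPR epsilon, read 17.4 and 15.4 in the wild type and 24.0 and 26.4 in the knockout, all under the floor.

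As a group, 1 of the 6 measured genes, Paqr8, was at least 1.5-fold higher in the knockout, and it was also at least 2-fold higher. This was by its probe set of brightest mean, a choice that uses the knockout signal. By the probe set brightest on the wild-type array Paqr8 was 1.49-fold higher. The mean log2 difference over its measured probe sets was 0.89, under 2-fold. The shares over all 11316 measured genes were 6.54% at 1.5-fold and 1.15% at 2-fold, and in the signal bin of Paqr8 15.5% passed 1.5-fold. None of the 6 was at least 1.5-fold lower, against 4.75% of measured genes. On either side of equality, 4 were higher (Pgr, Paqr6, Paqr7 and Paqr8) and 2 lower (Pgrmc1 and Pgrmc2), where 57.7% of all measured genes were higher. Paqr6 reached the floor on the knockout array alone, so with the floor it could only read higher. Pgr lay at 1.01 and 1.13 times the array medians. Both also enter the median of the 6. The median log2 difference of the 6 was 0.17 and that of all measured genes 0.06, with quartiles of -0.14 and 0.27. Signals of different probe sets are not levels that can be set against each other, so the order of the genes by transcript abundance is not given.

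**Figure D2:**
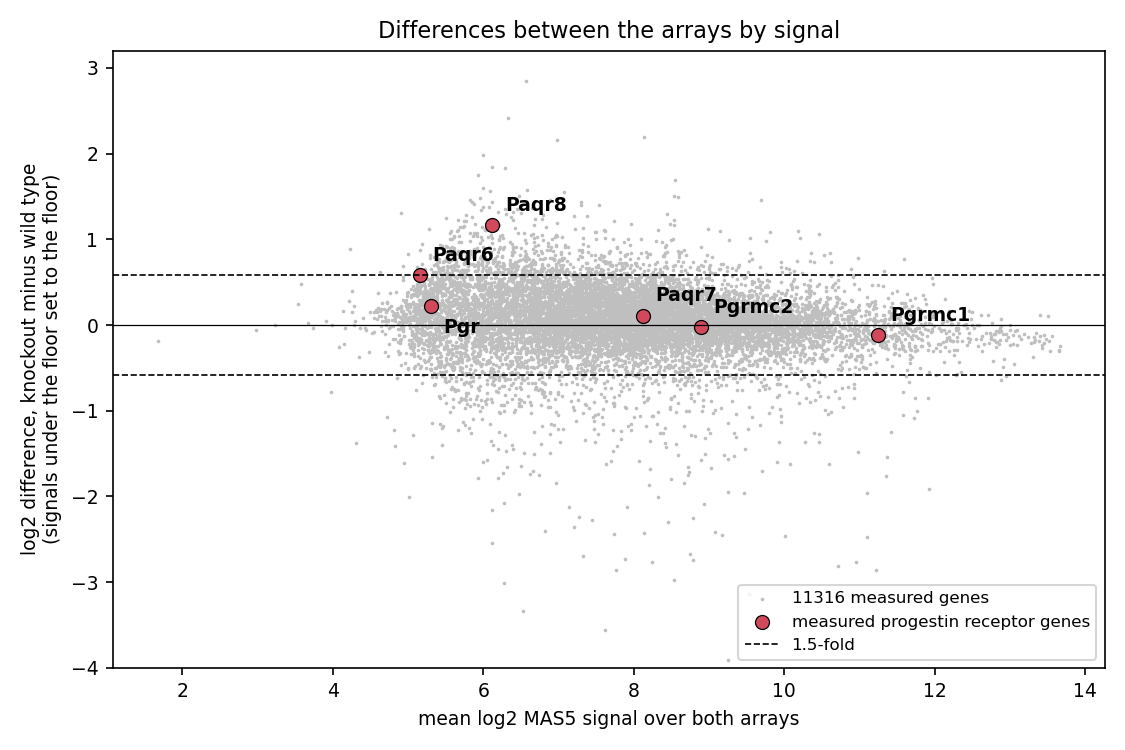
Log2 difference between the arrays (knockout minus wild type, signals under the floor set to the floor) against mean log2 signal for 11316 measured genes, with the 6 measured progestin receptor genes labelled and 1.5-fold marked by dashed lines; 3 genes lie below the plotted range. Paqr8 stands above the 1.5-fold line at a dim signal, Paqr6 touches it, and Pgr, Paqr7, Pgrmc2 and Pgrmc1 lie close to 0.

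Relatives of these genes that are not progestin receptors were compared next. Of 6 other PAQR genes, 5 were measured, 3 higher and 2 lower, or 2 higher and 3 lower after median centring or removal of the loess trend. Mmd2 was 1.54-fold higher in the knockout (88.3 and 136), and its measured probe sets gave log2 differences of 0.63 and 0.71. It lay under 1.5-fold after each of the 3 rescalings. The adiponectin receptor gene Adipor2 was 1.16-fold lower by its brightest probe set, and its 2 measured probe sets gave -0.21 and -0.65. Adipor1, counted as higher, had 3 measured probe sets that ran from -0.51 to 0.05. Paqr4 was 1.07-fold higher. Of the other MAPR genes, Nenf, which encodes the secreted protein neudesin, read 1.05-fold higher (413 and 435), where 57.7% of all measured genes were higher. Cyb5d2 reached the floor on the knockout array alone, so with the floor it could only read higher, by at least 1.31-fold.

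Of 7 measured genes for reported PGRMC partners, most of them in sterol and heme handling, 5 were lower, where 42.2% of all measured genes were. The median log2 difference was -0.16 and lay at -0.07 with quantile normalization, -0.09 without the loess trend and -0.23 with median centring. With median centring or without the loess trend 6 of 7 were lower. At least 1.5-fold lower was 1 of them, Egfr, which encodes the EGF receptor, at 676 and 437 (1.55-fold), with probe sets from -1.29 to -0.38. Insig1, a sterol-sensing regulator, was 1.46-fold lower (past 1.5-fold with median centring, at -0.61) and Cyp51, the sterol demethylase gene, 1.34-fold lower at 2086 and 1561. Fech, the last enzyme of heme synthesis and 1 of the 5 counted as lower, read 616 and 613. Its 3 measured probe sets ran from -0.01 to 0.63 on the log2 scale. Serbp1, also counted as lower at -0.16, had 6 measured probe sets that ran from -0.16 to 0.39. Tmem97, which encodes a sterol-binding membrane protein, read 233 and 234.

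Chaperones hold a steroid receptor ready for its ligand, and coregulators act with it on DNA. Of 11 measured chaperone and immunophilin genes, 8 were lower in the knockout (42.2% of all measured genes) and the median log2 difference was -0.11. With quantile normalization or without the loess trend 7 of 11 were lower, with medians of -0.07 and -0.09. With median centring 8 of 11 were lower, with a median of -0.18. These genes are bright, and the 2 brightest of the 10 bins of measured genes had medians of -0.01 and -0.05. The 1 gene of the 11 past 1.5-fold (4.75% of all measured genes were as much lower) was the co-chaperone gene Dnajb1. It was 1.69-fold lower (863 and 510), with 2 measured probe sets at log2 differences of -0.76 and -0.47. Hspa8, the constitutive heat shock cognate gene, was 1.41-fold lower and Dnaja1 1.28-fold lower. The 4 measured Hspa8 probe sets ran from -0.53 to 0.0007. Stub1, whose value is the list median, had 2 measured probe sets at -0.11 and 0.11. Fkbp4, an immunophilin of the receptor complex, read 864 and 927. Of 14 measured coregulator genes, 7 were higher and 7 lower, where 57.7% and 42.2% of all measured genes were. Their median of 0.01 turned under median centring, to -0.06. At least 1.5-fold higher was 1 of the 14, against 6.54% of all measured genes. The coregulator gene Nrip1 was 1.66-fold higher (769 and 1277) by its brightest probe set, but its 6 measured probe sets ran from -0.50 to 1.22. Ep300, a histone acetyltransferase gene, was 1.44-fold lower (past 1.5-fold with median centring, at -0.59) and Jdp2 1.35-fold lower. The coactivator genes Ncoa1, Ncoa2 and Ncoa3 were 1.15-fold, 1.13-fold and 1.09-fold higher.

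The 3 other steroid hormone receptor genes that were measured all read higher in the knockout, as did 57.7% of all measured genes. At least 1.5-fold higher was 1 of the 3, against 6.54% of all measured genes. Esr2, which encodes estrogen receptor beta, was 1.91-fold higher (179 and 342), Esr1 1.32-fold (184 and 243) and the glucocorticoid receptor gene Nr3c1 1.12-fold (245 and 274). Nr3c2, which encodes the mineralocorticoid receptor, was under the floor on both arrays.

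Among G-protein genes, Gnao1 was 1.86-fold lower in the knockout at a dim signal (95.1 and 51.0), and -0.36 on the log2 scale by its dimmer measured probe set. Gnao1 passed 2-fold with the loess trend removed (-1.01). The inhibitory subunit gene Gnai3 was 1.22-fold lower by its brightest probe set, but its 2 measured probe sets gave log2 differences of -0.29 and 0.08. Gnai1 was 1.11-fold higher, with measured probe sets from -0.01 to 0.18. The list of 5 had a median of -0.05.

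Genes that supply or remove the ligand included the largest differences of these lists. Of 6 measured, 1 was lower by 2-fold or more and 1 higher by as much, where the shares of all measured genes were 1.72% and 1.15%. Akr1c18, whose product inactivates progesterone by reduction, read 4447 and 634, 7.01-fold lower. Akr1c14, which encodes a hydroxysteroid dehydrogenase that acts on reduced progestins, read 830 and 1683, 2.03-fold higher, and went just under 2-fold with median centring (log2 difference under 1). Star, the cholesterol carrier gene of the first step, was 1.47-fold lower, and past 1.5-fold with median centring (-0.62). The side-chain cleavage gene Cyp11a1 read 11658 and 10744 and Hsd3b1 11244 and 12100. Hsd3b1 has close paralogs whose transcripts its probes may also bind. The median of the 6 was -0.18 and turned to 0.04 under quantile normalization.

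**Figure D3:**
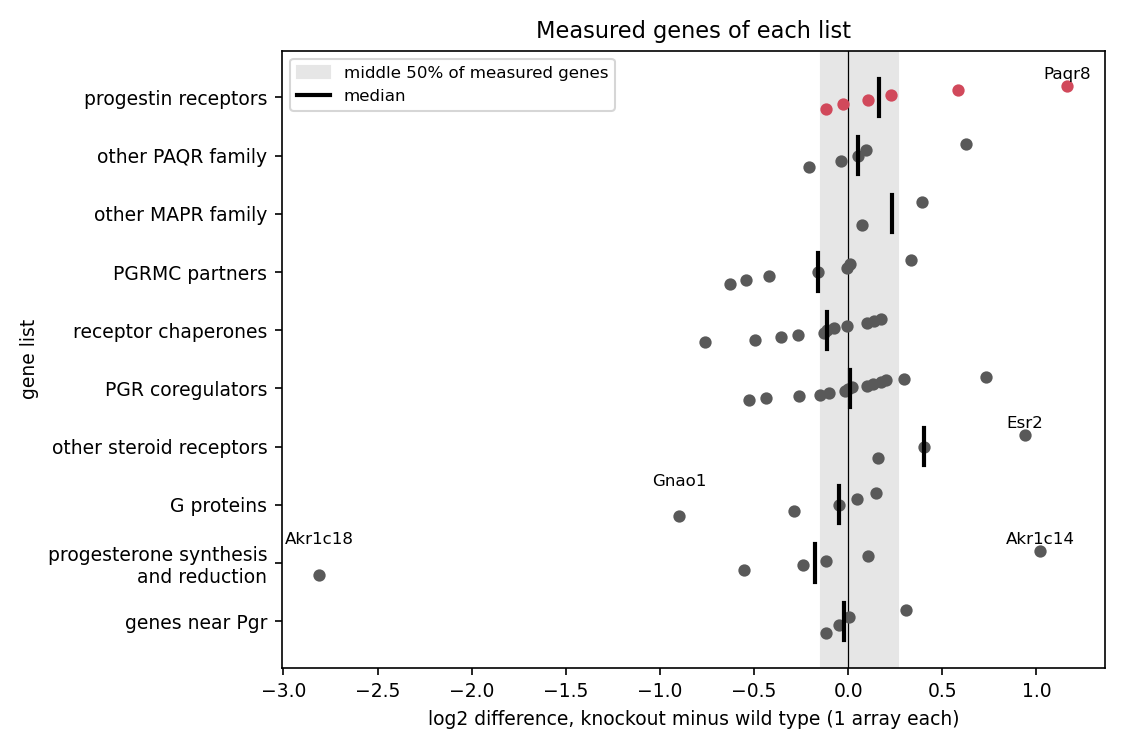
Log2 difference between the arrays (knockout minus wild type) of each measured gene (points) in the progestin receptor group and in 9 lists of related genes, with list medians as black bars and the middle 50% of all measured genes (-0.14 to 0.27) shaded. Akr1c18 lies far to the left at -2.81, and Akr1c14, Paqr8 and Esr2 lie to the right.

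Around the Pgr gene itself, the neighbours with a measured signal were mostly alike on both arrays. In the listed group of 6, 4 were measured and 0 passed 1.5-fold. Of all measured genes 6.54% were at least 1.5-fold higher and 4.75% at least 1.5-fold lower, so 0 of 4 is near these shares. Arhgap42, the next protein-coding gene on one side in the RefSeq table, was 1.24-fold higher, Birc3 1.09-fold lower and Birc2 1.04-fold lower. Trpc6, the next gene on the other side, was under the floor. Other genes up to 6 positions from Pgr were read after the lists were fixed. Cfap300, the third protein-coding gene on the same side as Trpc6, read 28.9, under the floor, and 76.1, at least 2.10-fold higher. With the floor Cfap300 could only read higher, and 1.15% of all measured genes were 2-fold higher or more. Ccdc82 and Mtmr2, on the side of Arhgap42, were 1.07-fold and 1.13-fold higher. Cep126 and Maml2 were under the floor, and Jrkl had no probe set with its symbol alone.

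The tissue label was checked against markers. All 7 granulosa and all 7 oocyte markers were measured, while the 3 oviduct markers and the 3 fat markers with a probe set were under the floor. Cell type markers also differed between the arrays, in both directions. Granulosa markers were higher in the knockout in 6 of 7, where 57.7% of all measured genes were, and 3 of them passed 1.5-fold (6.54% of all), or 2 with median centring. Their signals summed to 14365 for wild type and 16035 for knockout. Surface epithelium keratins and Upk3b were lower in 5 of 5 (42.2% of all), with sums of 1178 and 657. Of these, 4 were at least 1.5-fold lower (4.75% of all) and 3 at least 2-fold lower (1.72% of all). Endothelial markers were higher in 4 of 5 (57.7% of all), 1 of them by 1.5-fold or more (6.54% of all), with sums of 868 and 1097. Oocyte markers were higher in 7 of 7 (57.7% of all), 0 of them by 1.5-fold (6.54% of all), with sums of 1842 and 2108. The oocyte marker Figla reached the floor on the knockout array alone, so with the floor it could only read higher. Of the theca, luteal, smooth muscle, leukocyte and red cell markers, 2, 1, 4, 3 and 1 were measured, and 0 passed 1.5-fold. The part of such shifts in the Paqr8, Esr2 and Mmd2 differences was not tested.

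**Figure D4:**
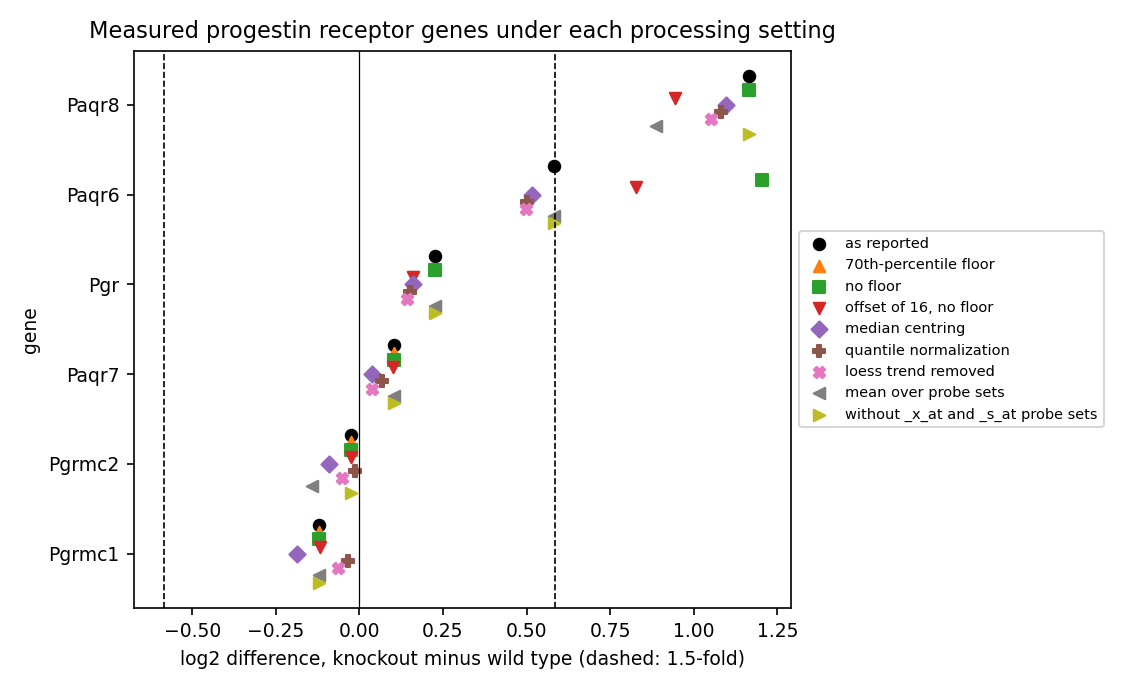
Log2 difference (knockout minus wild type) of the 6 measured progestin receptor genes under the reported setting and 8 alternatives, with 1.5-fold marked by dashed lines. Paqr8 stays right of the 1.5-fold line under every setting in which it was measured, from 0.89 to 1.16; Paqr6 runs from 0.50 to 1.20; Pgr, Paqr7, Pgrmc2 and Pgrmc1 stay between the lines.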

How the data were processed

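RNA of 1 wild-type and 1 PR knockout ovary sample was measured on 2 arrays. Per the labels' protocols, biotin-labelled antisense RNA was made from 100 ng of total RNA with a kit that primes at the 3′ end. The deposited table holds linear intensities, which the authors computed with MAS5 and Affymetrix Expression Console version 1, per the submitters' processing notes. The mean after trimming 2% at each end was 150 on both arrays. No genome build is named in the sources used here.

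From these, 64 control probe sets were set aside. Genes were named from the platform annotation where a probe set had 1 symbol (34945 of 45037; 932 had several and 9160 none). The gene IDs of all 8 genes were found in RefSeq (GRCm38.p6) with the same symbols. Each gene was read by its probe set of highest mean log2 signal. Signals under the array median were set to it, so folds against such a signal are lower bounds. A gene was measured if it reached that floor on at least 1 array. Bins of signal split measured genes into 10 equal groups. The SD of log2 differences between probe sets of one gene was 0.25 (4771 genes), which leaves out the spread between animals. The number of arrays limits the precision. The labels give no batch, and a batch would coincide with genotype.

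All 8 genes with every probe set, and the 3 largest differences of each list, were to be named; further list members were named after their values were seen. The genes and the lists (74 genes in 9 lists and 49 markers in 11) were chosen with earlier results of these data known. The calculation was tested on simulated data. Python 3.11.15, pandas 2.3.3 and statsmodels 0.14.6 (lowess, span 0.3) were used.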

Additional observations from a re-analysis of the deposited data

Results flagged for a closer look

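A probe set that the comparison left out, because it carries the symbols of both C730029A08Rik and Paqr9, gave a signal above the floor in the knockout. It read 24.0 in the wild type, under that array's median, and 51.0 in the knockout, or 2.12 times as much as deposited, at percentiles 43.1 and 54.7. Which of the genes it reads was not tested. The single-symbol Paqr9 probe sets were under the floor on both arrays.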

How the results depend on the processing

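The count of progestin receptor genes lower in the knockout by 1.5-fold or more was 0 under the reported setting and all 8 alternatives. The count at least 1.5-fold higher was 1 as reported and moved to 0 with the 70th-percentile floor, where Pgr, Paqr6 and Paqr8 were not measured, and to 2 with no floor and with an offset of 16, where Paqr6 joined Paqr8. It was 1 with median centring, quantile normalization, the loess trend removed, the mean over probe sets and when _x_at and _s_at probe sets, which may bind more than 1 transcript, were left out. The median log2 difference was lowest, at -0.02, with the 70th-percentile floor and highest, at 0.17, as reported. Paqr6 went from 0.58 to 1.20 with no floor, which by construction uses its wild-type background reading, and Paqr8 to 0.89 with the mean over its measured probe sets. The differences of the other genes moved by less than the SD between probe sets of one gene. Pgr and the PAQR genes other than Paqr7 lie within a few times the array median, where MAS5 signals are noisy. No paired analysis was possible because there is 1 array per genotype.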
